A study of Mus musculus with 10 samples.

Results

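The 2244 regions described here are antisense units: stretches of nascent transcription that the deposited annotation places on the strand opposite a gene and across that gene's start. They were taken as the transcribed units (TUs) of the class Antisense_TSS that had more than 10 fragments in at least 2 of 10 libraries. That left 2244 of 3386 deposited units of the class, among 28459 TUs of any class that passed the same filter and 40779 TUs in all. At the limit of the filter, 144 units passed with exactly 2 libraries above 10 fragments and had a median of 7.8 fragments per library, and 256 units missed it with 1 such library and had a median of 6.2.

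Transcription is often initiated in both directions around a gene start. Many promoters lie in open chromatin that also carries an initiation site on the other strand, and the RNA made from it runs away from the gene and is usually short-lived. Where the second site lies inside the gene, the antisense RNA crosses the gene's own start on its way out. Such RNAs are largely missing from steady-state RNA profiles and are seen in nascent RNA, because most are degraded soon after they are made.

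The RNA came from E14 mouse embryonic stem cells (129/Ola, the IB10 line for SOX2) in which the pluripotency factor SOX2 carries an FKBP degron tag, so that the small molecule dTAG-13 triggers its degradation. The line came from picked clones with the tag on both alleles that responded to dTAG-13, and all 10 libraries, NT included, carry the tag. How many clones stand behind the libraries is not given in the sources used here. Cells were grown without serum, with LIF and inhibitors of MEK and GSK3, and received DMSO (NT, 2 libraries) or 500 nM dTAG-13 for 0.5, 1, 2 or 6 h (2 libraries at each time). New RNA was labelled with 2 mM 4-thiouridine for 10 min, captured and sequenced by strand (TT_chem-seq). The comparison asks how antisense transcription across gene starts, and the gene behind it, changed once SOX2 was removed.

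The libraries held 11131490 to 25854106 fragments on deposited TUs, of which the antisense units took 1.39% and 1.49% in the NT libraries and 1.32% to 1.43% in the depleted ones. As a check of the cell type, 8 of 8 embryonic stem cell markers had a tested unit and summed to 3319 to 4573 CPM (counts scaled to a common library total), from 4077 and 4573 in NT to 3319 and 3465 at 6 h. The 5 of 7 markers of primed or differentiated cells that had a unit summed to 13.2 and 19.5 CPM in NT, 26.6 and 28.3 at 0.5 h and 17.4 and 20.1 at 6 h, and the 3 of 4 fibroblast markers that had a unit to 1.24 to 2.62 CPM in all libraries. The part of these shifts in the results was not tested. The replicates are labelled only by number, so p-values measure the spread between libraries that may be technical repeats.

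The start regions of 6 units are shown first: those opposite Top1, Hcrtr2, Kat2b and Cd38, which fell after depletion, and those opposite Clmp and Sowahb, which rose. Each window holds 300 bases of mm10, from 250 bases before the unit's start to its first 50 bases, read 5′ to 3′ on the antisense strand. The windows lie at chr2:160656209-160656508 (minus strand, in an intron of Top1), chr9:76312222-76312521 (plus strand, intron of Hcrtr2), chr17:53572942-53573241 (minus strand, intron of Kat2b), chr5:43871951-43872250 (minus strand, intron of Cd38), chr9:40784170-40784469 (minus strand, exon of Clmp) and chr5:93045005-93045304 (plus strand, at Sowahb). Capitals mark the core letters of SOX sites, CATTGT or CTTTGT, or of the octamer, ATGCAAA, on either strand, and no match of one of these motifs lies inside another.
Top1: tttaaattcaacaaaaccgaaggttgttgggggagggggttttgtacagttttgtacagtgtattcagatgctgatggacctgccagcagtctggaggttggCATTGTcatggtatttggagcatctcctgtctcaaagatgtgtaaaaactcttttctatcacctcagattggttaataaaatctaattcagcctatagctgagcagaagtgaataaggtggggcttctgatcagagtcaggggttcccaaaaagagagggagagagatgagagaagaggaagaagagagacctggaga
Hcrtr2: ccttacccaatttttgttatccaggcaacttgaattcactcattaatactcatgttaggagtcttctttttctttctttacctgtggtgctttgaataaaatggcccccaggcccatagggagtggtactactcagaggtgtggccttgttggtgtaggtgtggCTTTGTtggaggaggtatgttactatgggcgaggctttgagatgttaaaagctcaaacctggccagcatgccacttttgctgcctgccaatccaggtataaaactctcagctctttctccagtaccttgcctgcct
Kat2b: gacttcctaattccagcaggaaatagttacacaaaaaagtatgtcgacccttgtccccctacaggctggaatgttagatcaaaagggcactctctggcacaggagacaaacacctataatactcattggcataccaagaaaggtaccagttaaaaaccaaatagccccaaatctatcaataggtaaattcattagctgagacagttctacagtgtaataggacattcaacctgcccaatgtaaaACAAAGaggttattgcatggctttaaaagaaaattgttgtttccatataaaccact
Cd38: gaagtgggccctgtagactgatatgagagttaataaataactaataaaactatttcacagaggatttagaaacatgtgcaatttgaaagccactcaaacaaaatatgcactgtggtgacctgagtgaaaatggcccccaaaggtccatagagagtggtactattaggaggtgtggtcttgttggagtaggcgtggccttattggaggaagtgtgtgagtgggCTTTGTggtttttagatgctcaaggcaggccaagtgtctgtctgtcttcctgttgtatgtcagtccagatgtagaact
Clmp: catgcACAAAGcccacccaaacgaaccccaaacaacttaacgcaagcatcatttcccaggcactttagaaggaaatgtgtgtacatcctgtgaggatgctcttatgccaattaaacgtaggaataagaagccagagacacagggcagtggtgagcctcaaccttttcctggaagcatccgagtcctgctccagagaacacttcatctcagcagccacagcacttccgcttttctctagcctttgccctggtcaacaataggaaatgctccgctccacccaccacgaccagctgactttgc
Sowahb: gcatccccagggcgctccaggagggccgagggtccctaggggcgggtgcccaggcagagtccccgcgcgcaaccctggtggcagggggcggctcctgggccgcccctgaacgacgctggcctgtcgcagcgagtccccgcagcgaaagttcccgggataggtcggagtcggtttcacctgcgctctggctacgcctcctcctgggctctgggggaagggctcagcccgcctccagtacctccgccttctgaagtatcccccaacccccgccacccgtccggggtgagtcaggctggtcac
The Top1, Hcrtr2, Kat2b, Cd38 and Clmp windows each held 1 SOX core, and no capitals stand in the Sowahb window. The first 4 windows had 1 CpG each, the Clmp window 7 and the Sowahb window 24.

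A SOX core was present in 21.6% of the start windows of all 2244 antisense units, in 27.2% of the windows at the opposite genes' starts and in 26.4% of those of all 28459 tested TUs. Among the antisense units called down it was present in 6 of 15 windows at 0.5 h, 21 of 64 at 1 h (32.8%), 27 of 99 at 2 h (27.3%) and 44 of 152 at 6 h (28.9%), and among those called up at 6 h in 11 of 40 (27.5%). The octamer core stood in 4.1% of antisense windows and 5.43% of all windows. A GC box core, GGGCGG, stood in 46.7% of antisense windows and 35% of all, and the ETS core CCGGAAG in 14.5% and 10.2%. At the starts of all TUs assigned to 1 gene these shares were 47% and 13.3%. Antisense units covering the start of a tested gene had 39% and 9.95%, and those beginning just upstream of a gene start 77.5% and 28.1%. These are matches of letters within 300 bases, both strands read, and TU starts are placed only as closely as the coverage allowed.

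CpG content varied with where a unit began. At least 10 CpGs were found in 61.1% of all antisense windows, and in 94% of the windows of units that began just upstream of a gene start. The share was 89.6% for units beginning up to 500 bp inside the gene, 54.7% from there to 2000 bp, 28.6% from there to 10000 bp, and 13.3% beyond 10000 bp. Of the units called down at 6 h, 36.2% had such a window, and of those called up at 6 h, 47.5%.

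The class label matched the positions only in part. Of the 2244 units, 1419 covered the start of a Single Gene TU, the annotation's class for a unit assigned to 1 gene, on the opposite strand, and these units faced 1419 different genes. A further 519 began within 1000 bp upstream of such a start and ran away from it without crossing it, at a median distance of 161 bp, and are called divergent here. The other 306 had neither position, and 352 of the 825 units that crossed no Single Gene TU start overlapped such a TU elsewhere. A start of a RefSeq transcript on the opposite strand was covered by 1564 of the 2244 units. The plot of unit starts shows a sharp peak just upstream of gene starts and a long tail of starts inside genes.

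**Figure D1:**
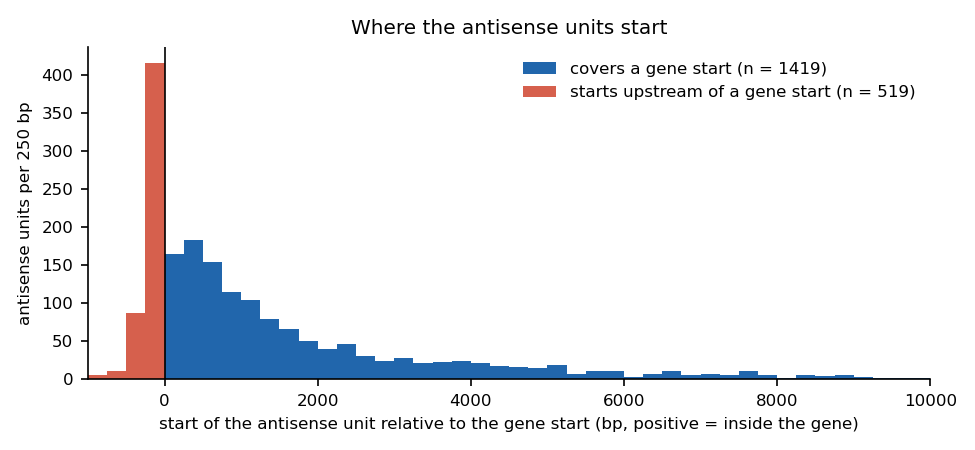
Histogram of the position where each antisense unit starts, in bp from the start of its gene (x axis, 250-bp bins, positive inside the gene), for the 1419 units that cover a gene start (blue) and the 519 that start within 1000 bp upstream of one (red). The divergent units crowd within 500 bp of the gene start (503 of 519), and 75 units that start over 10000 bp inside a tested gene lie beyond the axis.

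A second departure concerned the strand of the units themselves. A protein-coding GENCODE gene lay on the same strand in 169 of the 2244 units, so that their signal can come from that gene as well as from antisense initiation, and the share of each was not tested. These 169 units held 58.8% of all fragments in the class and had a median of 102 fragments per library, against 21.3 in the other 2075. The unit opposite Gm30363, which overlaps the acetyltransferase gene Kat6b on its own strand, alone held 13.5% of the fragments. The counts of units called up and down at each time are therefore given with and without these units, and all other counts include them.

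The antisense units were short and weak beside the genes they faced. Their median length was 5694 bp (quartiles 3445 and 9914 bp), and the 1419 that covered a gene start began a median of 1221 bp inside the gene and reached a median of 4246 bp beyond it. Of these starts 60.5% lay in a RefSeq intron on the gene's strand, 28% in an exon and 11.4% outside. The median unit had 22.6 fragments per library and the median opposite gene 1122. In NT cells the level per length had a median of 0.307 CPM per kb over the antisense units and 1.68 CPM per kb over the 1407 opposite genes that were tested.

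Antisense and gene levels were only loosely related. The antisense level was a median of 19.3% of its gene's level per kb in NT cells (quartiles 8.49% and 47.1%), and it exceeded the gene's level in 182 of 1407 pairs (12.9%). Across the 1407 pairs the log2 levels per kb had a Pearson r of 0.15, a description over pairs that share their libraries and, in part, their DNA. The highest levels per kb in NT were those of the units at Nicn1 (15.7 CPM per kb, a divergent unit of 2678 bp), near Adck3 (13.3, a unit of 324 bp in an exon on the other strand that covers no Single Gene TU start), opposite Gm30363 (12.9), opposite Gm30762 (11.7) and opposite LOC102633032 (11.5).

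Only the Nicn1 unit among these 5 was called at any time. Its CPM was 36.1 and 47.9 in NT, 36.1 and 48.7 at 0.5 h, 35.4 and 44 at 1 h, 28.6 and 32.1 at 2 h, and 21.1 and 19.5 at 6 h. The 2 libraries at 6 h lay below every other library, and the log2 fold change was -1.05 ± 0.17 (SE, adjusted p = 0.000624). The unit opposite Gm30762 stayed between 206 and 243 CPM in all 10 libraries.

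SOX2 depletion lowered antisense units far more often than it raised them. Against NT, 15 of 2244 were called down at 0.5 h, 64 at 1 h, 99 at 2 h and 152 at 6 h, while 2, 6, 12 and 40 were called up (adjusted p below 0.05, edgeR over all tested TUs). Over all 28459 TUs, 0.787%, 3.61%, 5.57% and 9.2% were called down at these times and 0.527%, 2.15%, 4.26% and 6.61% up. The antisense shares called down, 0.668%, 2.85%, 4.41% and 6.77%, lay somewhat below that background, and the shares called up, 0.089%, 0.267%, 0.535% and 1.78%, lay several times below it. That background was not matched for depth. Among the 530 antisense units with a mean of at least 50 fragments per library, 1.32%, 5.09%, 7.17% and 13.2% were called down, above it. In the 1714 weaker ones these shares were 0.467%, 2.16%, 3.56% and 4.78%. Called up were 0.377%, 0.755%, 1.51% and 3.58% of the 530, still below the background. Leaving out the 169 units with a same-strand protein-coding gene gave 15, 59, 89 and 145 down and 2, 5, 6 and 26 up. In bulk RNA, fewer cells transcribing a unit and less RNA per cell cannot be told apart.

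The median of the class lay below 0 at each time. The median log2 fold change of the antisense units was -0.13, -0.23, -0.23 and -0.18 at 0.5, 1, 2 and 6 h, against -0.02, -0.04, -0.04 and -0.04 over all tested TUs. Other classes of units also had medians below 0. The median was -0.07, -0.17, -0.19 and -0.30 over 2831 antisense units inside gene bodies and -0.10, -0.16, -0.19 and -0.29 over 7793 extragenic units. At 6 h 10.8% and 11.9% of these were called down and 2.01% and 2.6% up. The 594 antisense units across gene ends had medians of -0.01, -0.07, -0.10 and -0.16. Among the antisense units across gene starts, the 169 with a same-strand protein-coding gene had medians of -0.01, 0.01, 0.04 and 0.11, and the other 2075 medians of -0.14, -0.24, -0.24 and -0.20. At 1 h 70.7% of the antisense units had a log2 fold change below 0, against 54.9% of all TUs. Among the 530 units with a mean of at least 50 fragments the median at 1 h was -0.2, and among the 1714 weaker ones -0.26. Scaling by total counts moved the median of all TUs at 1 h to -0.13 and that of the antisense units to -0.32.

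**Figure D2:**
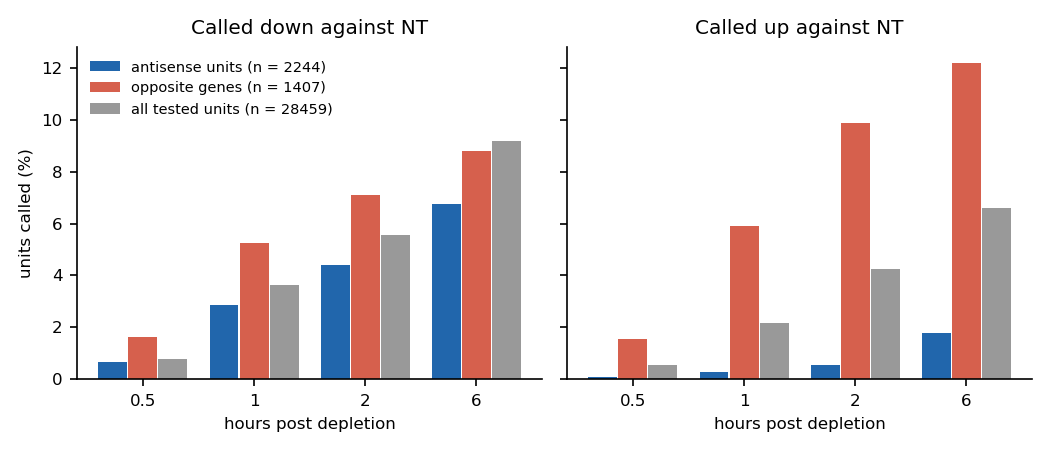
Percentage of units called down (left) and up (right) against NT at each time after depletion (x axis, hours), for the 2244 antisense units (blue), the 1407 opposite genes (red) and all 28459 tested TUs (grey). Antisense units were seldom called up, at most 1.78%, while up to 12.2% of the opposite genes were.

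The calls depended on single libraries, since each group has 2. Without NT replicate 2 the units called down were 3, 22, 37 and 53 at the 4 times in place of 15, 64, 99 and 152. Without 1 h replicate 1 or 2 those at 1 h were 25 and 27, and without 6 h replicate 1 or 2 those at 6 h were 70 and 80. The 40 called up at 6 h became 12 without NT replicate 2 and 17 and 10 without 6 h replicate 1 or 2. DESeq2 called 39 down at 1 h and 90 at 6 h.

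The unit across the start of Top1 was the most strongly lowered at every time. Top1 encodes DNA topoisomerase I, which relieves supercoiling during transcription. The antisense unit (chr2:160637513-160656258, minus strand, 18745 bp) began 10372 bp inside the gene, in an intron, and ran 8373 bp beyond the gene's start. It had 968 and 844 fragments in the NT libraries and 9 and 12 at 6 h. In CPM this was 65.2 and 61.3 in NT, 11.2 and 9.49 at 0.5 h, 2.82 and 2.16 at 1 h, 1.26 and 1.64 at 2 h, and 0.632 and 0.699 at 6 h. Each time stood clear below the one before in both libraries, though of the steps between depleted times only that from 0.5 to 1 h was called. The log2 fold change was -2.60 ± 0.14 at 0.5 h (SE, adjusted p = 1.8e-07), -4.67 ± 0.17 at 1 h, -5.45 ± 0.18 at 2 h and -6.55 ± 0.21 at 6 h (adjusted p = 6.6e-11).

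The Top1 gene moved the other way. Its unit had 253 and 223 CPM in NT, 293 and 232 at 0.5 h, 334 and 295 at 1 h, 420 and 296 at 2 h, and 336 and 331 at 6 h, so that every library from 1 h on lay above both NT libraries. The log2 fold change was 0.14 ± 0.15 and 0.40 ± 0.15 at the first 2 times, neither of them called, then 0.59 ± 0.15 at 2 h (adjusted p = 0.0231) and 0.49 ± 0.15 at 6 h (adjusted p = 0.0424). In NT the antisense level per kb was 119% of the gene's. The antisense to gene ratio fell by 2.74 on the log2 scale at 0.5 h and by 6.83 at 6 h (limma, adjusted p = 2.4e-06 and 2.0e-13).

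Hcrtr2, which encodes the orexin receptor type 2 and was barely transcribed itself, faced another strong unit. The antisense unit (chr9:76312471-76328183, plus strand) began 10907 bp inside the gene and overlaps the annotated antisense gene Gm27234. Its CPM was 47.5 and 55.6 in NT, 20.4 and 19 at 0.5 h, 7.9 and 10.1 at 1 h, 4.25 and 4.27 at 2 h, and 3.09 and 3.49 at 6 h. As at Top1, no time overlapped the one before it, and the step from 2 to 6 h was not called when tested directly. The log2 fold change was -1.38 ± 0.13 at 0.5 h (adjusted p = 0.00014) and -3.96 ± 0.17 at 6 h (adjusted p = 1.9e-09). The gene had 1.48 and 1.89 CPM in NT and between 0.376 and 0.815 CPM from 1 h on, and was called down at 1, 2 and 6 h (-2.09 ± 0.40, -1.62 ± 0.37 and -1.33 ± 0.37).

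Kat2b encodes a histone acetyltransferase. Its antisense unit, which began 15764 bp inside the gene in an intron, had 12.1 and 13.1 CPM in NT, 3.82 and 2.82 at 0.5 h, 2.89 and 2.51 at 1 h, 2.83 and 4.09 at 2 h, and 3.23 and 4.43 at 6 h. All depleted libraries lay below NT and most of the drop was present at the first time, when the log2 fold change was already -1.88 ± 0.22 (adjusted p = 0.000565). The gene fell by less, from 379 and 362 CPM in NT to 219 and 206 at 1 h (-0.80 ± 0.11, adjusted p = 0.000304), and had 321 and 322 CPM at 6 h, where it was not called (-0.21 ± 0.11). The antisense to gene ratio was lower at all 4 times, with log2 changes of -1.47, -1.38, -1.37 and -1.50 (limma, adjusted p = 0.0133, 0.00507, 0.00355 and 0.00082).

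Cd38 encodes an enzyme that consumes NAD. Its antisense unit started 12435 bp inside the gene and had 34.7 and 40.9 CPM in NT, 25.8 and 28.1 at 0.5 h, 17.3 and 19.1 at 1 h, 15.4 in both libraries at 2 h, and 7.87 and 8.5 at 6 h. It was not called at 0.5 h (-0.49 ± 0.12, adjusted p = 0.0651) and was called from 1 h on, reaching -2.20 ± 0.14 at 6 h (adjusted p = 7.8e-08). The gene had 66.6 and 59.1 CPM in NT and 33.7 and 39.9 at 6 h, and was called only then (-0.77 ± 0.12, adjusted p = 0.000397).

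Sfmbt2, a Polycomb group gene, paired a falling antisense unit with a rising gene. The antisense unit began 21125 bp inside the gene and had 4.51 and 4.87 CPM in NT, 1.64 and 1.97 at 0.5 h, 1.13 and 0.74 at 1 h, 0.708 and 0.818 at 2 h, and 0.773 and 0.874 at 6 h. Its log2 fold change was -1.40 ± 0.26 at 0.5 h, a call that was lost without any 1 of the 4 libraries compared, and -2.33 ± 0.29 at 1 h (adjusted p = 0.000165). The gene had 119 and 117 CPM in NT, 116 and 106 at 0.5 h, 185 and 140 at 2 h, and 202 and 215 at 6 h, a rise of 0.82 ± 0.12 at 6 h (adjusted p = 0.000332). Both 6 h libraries of the gene exceeded both NT libraries by a wide margin.

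The unit opposite Sdr9c7, a dehydrogenase gene of the skin, fell while no change of its gene was called. The antisense unit had 10.4 and 12.6 CPM in NT, 4.76 and 4.96 at 0.5 h and between 1.69 and 3.14 CPM in the later libraries. Its log2 fold change was -2.16 ± 0.27 at 1 h (adjusted p = 0.00016) and -2.22 ± 0.27 at 6 h. The gene had 4.44 and 5.23 CPM in NT and 2.33 to 5.3 CPM in the depleted libraries, an overlapping range.

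**Figure D3:**
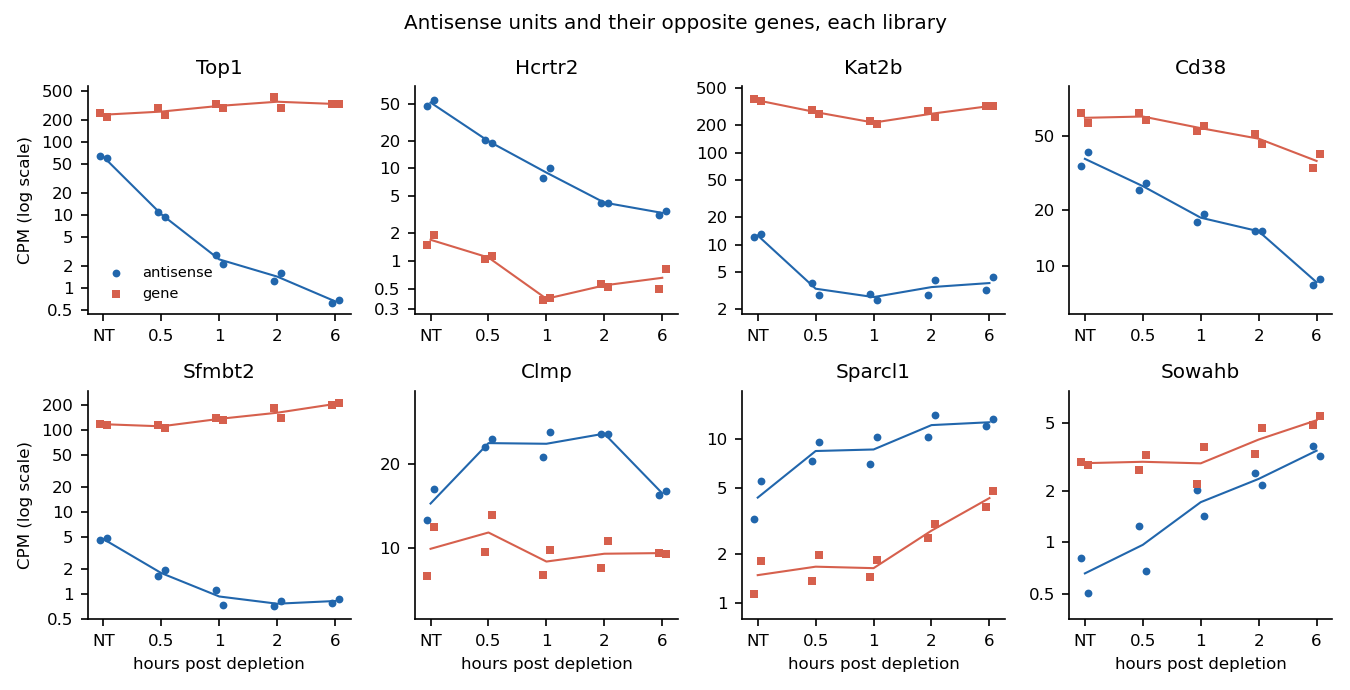
CPM on a log scale (y axis) of 8 antisense units (blue circles) and their opposite genes (red squares) in each of the 2 libraries per time (x axis, NT and hours post depletion), with lines through the means. The Top1 antisense points drop from 65.2 and 61.3 to 0.632 and 0.699 CPM while the gene's points stay above 200 CPM.

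Rises were fewer and smaller. Clmp encodes a cell adhesion protein, and its antisense unit, which began 31243 bp inside the gene in an exon, had 12.6 and 16.3 CPM in NT, 23 and 24.5 at 0.5 h, 21.1 and 26.1 at 1 h, 25.7 in both at 2 h, and 15.5 and 16 at 6 h. The first 3 times lay above NT and the last lay inside the NT range. The log2 fold change was 0.72 ± 0.15 at 0.5 h (adjusted p = 0.0219, a call lost with total counts and without NT replicate 1 or either 0.5 h replicate) and 0.83 ± 0.14 at 2 h (adjusted p = 0.00153). The gene was not called at any time (-0.15 ± 0.21 at 1 h), and the ratio was higher at 1 and 2 h (0.84 and 0.88 on the log2 scale, adjusted p = 0.018 and 0.0074).

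The unit at Igsf5, a gene for an immunoglobulin family adhesion protein, rose briefly. It was a divergent unit, with its start at -167 bp from the gene start, and had 2.69 and 2.98 CPM in NT, 6.24 and 7.78 at 0.5 h, 4.83 and 5.52 at 1 h, 2.93 and 2.81 at 2 h, and 2.46 and 1.86 at 6 h. The log2 fold change was 1.29 ± 0.22 at 0.5 h (adjusted p = 0.00783), with an adjusted p of 0.0669 to 0.0792 without 0.5 h replicate 2 or either NT replicate.

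Sparcl1, which encodes a secreted matrix protein, and its antisense unit both rose. The antisense unit, over the annotated antisense gene Gm26703, had 3.23 and 5.52 CPM in NT, 7.3 and 9.49 at 0.5 h, 6.96 and 10.2 at 1 h, 10.2 and 13.9 at 2 h, and 11.9 and 13.2 at 6 h. Every depleted library exceeded NT, and the unit was called from 1 h on, by 0.98 ± 0.26 at 1 h (adjusted p = 0.0392, a call lost with total counts and without 1 h replicate 2, NT replicate 1 or either 6 h replicate), 1.46 ± 0.26 at 2 h (adjusted p = 0.00164) and 1.53 ± 0.26 at 6 h. The gene had 1.14 and 1.82 CPM in NT and 3.86 and 4.83 at 6 h, where it was called (1.56 ± 0.30, adjusted p = 0.00228). It was not called earlier.

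Sowahb and Atp1a4 faced weak units that rose at 6 h. The unit opposite Sowahb, an ankyrin repeat gene, began 260 bp inside the gene and had 0.808 and 0.509 CPM in NT, 1.25 and 0.684 at 0.5 h, 2.01 and 1.42 at 1 h, 2.53 and 2.16 at 2 h, and 3.65 and 3.2 at 6 h. From 1 h on no library overlapped NT, and the log2 fold change at 6 h was 2.35 ± 0.36 (adjusted p = 0.000383). Its gene had 2.96 and 2.83 CPM in NT and 4.85 and 5.47 at 6 h (0.83 ± 0.27, adjusted p = 0.0452). The unit opposite Atp1a4, a sodium pump subunit, had 6 and 7 fragments in the NT libraries and 22 and 38 at 6 h, a change of 2.04 ± 0.41 (adjusted p = 0.00338), and its gene changed by 2.99 ± 0.40.

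The remaining units that the rule named as risers were weak or uncertain. The unit opposite Fmnl1, a formin gene, had 4 and 6 fragments in NT and 20 and 27 at 1 h (1.98 ± 0.46, adjusted p = 0.0179), and this call was lost without any 1 of the 4 libraries compared. The Fmnl1 gene rose as well (1.19 ± 0.19 at 1 h). The unit opposite A230103O09Rik, whose gene was not tested, had 7 and 12 fragments in NT and 48 and 38 at 2 h (1.79 ± 0.35, adjusted p = 0.00352). The unit opposite Gm42357 overlaps Camta1, a transcription factor gene, on its own strand, spans 162731 bp and changed by 0.56 ± 0.14 at 1 h (adjusted p = 0.0264), a call also lost without any 1 of the 4 libraries.

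The genes opposite the antisense units were called more often than the units. Of 1407 tested opposite genes, 23, 74, 100 and 124 were called down at 0.5, 1, 2 and 6 h, and 22, 83, 139 and 172 up. Among all tested Single Gene TUs, 0.801%, 3.56%, 5.33% and 7.73% were called down and 0.835%, 3.55%, 6.88% and 10.4% up. The shares of opposite genes, 1.63%, 5.26%, 7.11% and 8.81% down and 1.56%, 5.9%, 9.88% and 12.2% up, were higher at each time, for genes whose median of 1122 fragments per library was far above that of the antisense units. Their median NT level, 1.68 CPM per kb, was also above the 0.777 CPM per kb of all tested Single Gene TUs. Medians of the opposite genes were 0.03, 0.07, 0.10 and 0.09 on the log2 scale, and with total counts -0.02 at both 1 and 2 h.

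The changes of units and genes within pairs were related. Across 1407 pairs the 2 log2 fold changes had a Pearson r of 0.45, 0.46, 0.50 and 0.55 at 0.5, 1, 2 and 6 h, given as a description, since both members of a pair come from the same libraries and share their NT libraries. Of 48 pairs with the antisense unit called down at 1 h, the gene was also called down in 28 and not called in the other 20, with a median gene change of -0.49. At 6 h, 107 pairs had the antisense unit called down, and the gene was down in 53, not called in 50 and up in 4. Of the 25 pairs with the antisense unit called up at 6 h, 13 genes were up and 12 not called.

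**Figure D4:**
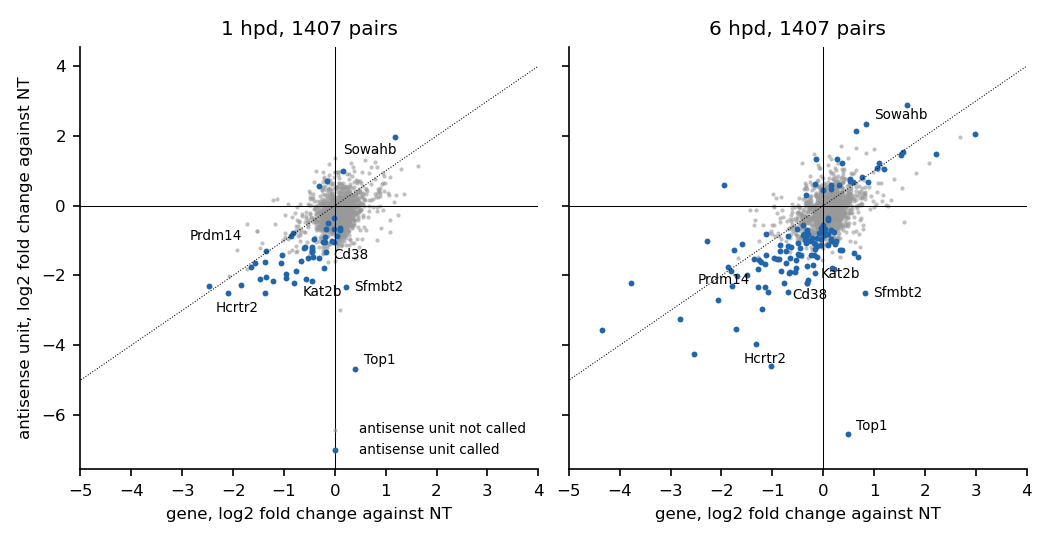
Log2 fold change against NT of the antisense unit (y axis) and of its opposite gene (x axis) for 1407 pairs at 1 h (left) and 6 h (right), with called antisense units in blue and the dotted line where both changed alike. Most called units lie below 0 and below the dotted line (107 pairs with the unit called down at 6 h), and Top1 stands apart at -4.67 and -6.55.

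Calls in opposite directions were rare, and in all of them the antisense unit was down and the gene up. In these pairs 8 units were called up at 2 h and 25 at 6 h, against 71 and 107 called down. The other direction thus had few chances to occur. Shares over pairs of other classes were not counted. At 2 h the antisense unit was called down and the gene up at Top1, Sfmbt2, Stil and Srgap1, and at 6 h at Top1, Sfmbt2, Fcgrt and Srgap1. Stil, Srgap1 and Fcgrt were outside the rule for named units and were picked after their values were seen. The adjusted p of their antisense units ranged from 0.0252 to 0.0481 (edgeR), and these calls were not followed through the alternative fits. At Stil, a centriole assembly gene, the antisense unit had 2.09 and 2.33 CPM in NT and 1.16 and 0.935 at 2 h (-1.06 ± 0.31, adjusted p = 0.0423), and the gene 84.9 and 76.2 against 122 and 93.7 (0.42 ± 0.12, adjusted p = 0.0435). At Srgap1, a regulator of small GTPases, the antisense unit had 1.08 and 2.33 CPM in NT and 0.632 and 0.582 at 6 h, and the gene 87.2 and 90.6 against 132 and 153 (0.68 ± 0.11). At Fcgrt, the neonatal Fc receptor gene, the antisense unit had 1.62 and 1.82 CPM in NT and 0.492 and 0.815 at 6 h, and the gene 16 and 13.2 against 20.7 and 23.8. The Fcgrt gene was already up at 0.5 h, at 24.2 and 32 CPM (0.93 ± 0.16, adjusted p = 0.00783), when its antisense unit had 1.37 and 1.88 CPM (-0.13 ± 0.33, not called).

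A direct test of the antisense to gene ratio called few pairs. Of 1407 pairs the ratio was lower in 2, 11, 26 and 61 at 0.5, 1, 2 and 6 h, and higher in 2, 6 and 11 at 1, 2 and 6 h, while both calls at 0.5 h, Top1 and Kat2b, were lower. Over all 4589 pairs of an antisense unit of any class with an overlapping gene, 0.174%, 1.22%, 2.83% and 8.56% were lower and 0.0436%, 0.436%, 1% and 1.7% higher. The shares in pairs across gene starts, 0.142%, 0.782%, 1.85% and 4.34% lower, lay under that background. The median ratio change was -0.27 at 1 h and -0.25 at 6 h, against -0.23 and -0.28 over all pairs.

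Most ratios called lower at 6 h came with a called antisense unit. The antisense unit itself was down in 41 of the 61 pairs, and the gene was up in 15 of them. Among the pairs named for a higher ratio, some had an antisense unit that was not called. At Nthl1, a DNA repair gene, the ratio rose by 0.94 at 6 h (adjusted p = 0.0021) while the antisense unit, which overlaps Tsc2 on its own strand, stayed at 34.1 to 40.7 CPM in all libraries and the gene went from 15.6 and 11.8 CPM in NT to 7.16 and 6.87.

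At Platr6, a non-coding RNA gene of stem cells, both fell and the gene fell further. The antisense unit had 6.39 and 8.72 CPM in NT and 4.14 and 3.38 at 6 h (-1.01 ± 0.21, adjusted p = 0.00469, and not called without NT replicate 2 or 6 h replicate 2). The gene had 11 and 14.3 CPM in NT and 2.6 and 2.56 at 6 h (-2.29 ± 0.20), so the ratio was higher by 1.26. At Pbld2, whose antisense unit overlaps Hnrnph3 on its own strand, the ratio was higher by 0.67 at 2 h (adjusted p = 0.023), and at Gm40974, whose unit overlaps Dapk1, by 1.94 at 6 h over a gene with 1 to 14 fragments per library.

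Genes of pluripotency were called down at each time, and some of the antisense units facing them were called down from 1 h on. Of 40 listed genes 11 faced an antisense unit, and 3, 6, 7 and 9 of these genes were called down at 0.5, 1, 2 and 6 h, against 0.801%, 3.56%, 5.33% and 7.73% of all Single Gene TUs. None of the 11 units was called at 0.5 h by edgeR or DESeq2 (5 had an unadjusted p under 0.05), and 1, 2 and 3 were called down at 1, 2 and 6 h by edgeR and 1, 0 and 2 by DESeq2. At these times 0.668%, 2.85%, 4.41% and 6.77% of all antisense units were called down. The median log2 fold changes of the 11 units were -0.60, -0.55, -0.58 and -0.84, those of their genes -0.36, -0.52, -0.41 and -0.85, and all 11 lay below 0 at 1 h. Their antisense levels in NT were 1.48% (Fbxo15) to 20.2% (Zscan10, over a unit that overlaps Zfp13 on its own strand) of the gene's level per kb.

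Prdm14, a repressor of differentiation, faced a unit with 2.22 and 2.47 CPM in NT, 1.52 and 1.28 at 0.5 h, 0.69 and 1.31 at 1 h, 0.859 and 1.11 at 2 h, and 0.281 and 0.524 at 6 h. Both libraries at each time lay below NT, and the unit was called at 2 h (a call lost under DESeq2, adjusted p = 0.131, and without 2 h replicate 1 or either NT replicate) and at 6 h (-2.49 ± 0.42 at 6 h, adjusted p = 0.000845). The gene had already dropped from 62.9 and 72.7 to 36.3 and 33.3 CPM at 0.5 h (-0.96 ± 0.11, adjusted p = 0.0004) and stood at 32 and 32.1 at 6 h. The ratio fell at 6 h by 1.20 on the log2 scale (adjusted p = 0.048).

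Tfcp2l1, a naive pluripotency factor, showed a called fall of the unit alone. The antisense unit began 15585 bp inside the gene and had 6.13 and 9.08 CPM in NT and 3.65 and 4.72 at 6 h (-0.85 ± 0.22, adjusted p = 0.0181, a call lost without NT replicate 2 or 6 h replicate 1). The gene had 931 and 1017 CPM in NT and 929 and 1038 at 6 h, with overlapping values (0.01 ± 0.11). At Tet2, a methylcytosine dioxygenase gene, the unit had 2.42 and 2.76 CPM in NT and 0.983 and 1.46 at 6 h (-1.06 ± 0.30, adjusted p = 0.0263, not called by DESeq2 or without NT replicate 2 or 6 h replicate 1), and the gene changed by -0.18 ± 0.11.

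At Mycn, a proto-oncogene, the unit had 1.68 and 2.03 CPM in NT, 0.564 and 0.342 at 1 h and 1.26 and 0.99 at 6 h, and was called at 1 h only (-2.03 ± 0.44, adjusted p = 0.0107, a call lost without 1 h replicate 2 or NT replicate 2). Its gene was called down at 1, 2 and 6 h (-1.35 ± 0.18 at 1 h). The units at Nr0b1, Klf5, Dppa2, Nr5a2, Zscan10 and Fbxo15 were not called at any time. Nr0b1, a transcription factor gene, changed by -2.08 ± 0.18 at 1 h, while its unit had only 2 to 17 fragments per library.

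No antisense unit of the class covered the start of Suv39h1, Sox2 or Klf2. Suv39h1 and Sox2 faced antisense units of another class, inside the gene body. The unit of the class near Klf2 was divergent, with its start at -212 bp from the gene start, and had 1.28 and 1.67 CPM in NT and 0.983 and 0.874 at 6 h (-0.66 ± 0.35, not called).

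In the other lists, calls among antisense units were found opposite chromatin regulators. Of 16 such units edgeR called 1, 1, 2 and 3 down at the 4 times and DESeq2 1 at each, against 0.668%, 2.85%, 4.41% and 6.77% of all antisense units by edgeR. The units called were those opposite Top1 each time, Tet2 at 2 and 6 h (lost under DESeq2 at both times, and at 2 h without any 1 of the 4 libraries compared) and, at 6 h, Suz12, a Polycomb subunit whose antisense unit had 8.62 and 11.4 CPM in NT and 7.02 and 6.64 at 6 h (-0.55 ± 0.18, adjusted p = 0.0477, not called by DESeq2). Of 7 units opposite cholesterol synthesis genes edgeR and DESeq2 called none at any time, with no unadjusted p under 0.05, and 1, 7, 7 and 1 of the genes were called up at the 4 times, against 0.835%, 3.55%, 6.88% and 10.4% of all Single Gene TUs. The median log2 fold change over these units was -0.13, 0.24, 0.27 and -0.60, and over their genes 0.28, 0.84, 1.04 and -0.04. At Hmgcs1, which encodes an early enzyme of the pathway, the log2 fold change at 1 h was 0.34 for the unit and 1.36 for the gene. Neither the 10 units opposite cell cycle genes nor the 2 opposite developmental factors (Sox12 and Nr2f2) were called by either tool, with 0 or 1 and 0 to 2 of them, respectively, under an unadjusted p of 0.05 at any time.

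From 1 h on, falls were more frequent among units that began over 2000 bp inside the gene than among those that began closer to its start. At 1 h 12 of 75 units that began more than 10000 bp inside were called down (16%), against 4.22% of those beginning between 2000 and 10000 bp, 2.33% between 500 and 2000 bp, and 1.45% within 500 bp. At 6 h the shares were 22.7%, 12.2%, 3.94% and 4.62%, and among the divergent units with a tested gene 1.18% were down at 1 h and 3.75% at 6 h. Over all tested TUs 3.61% were down at 1 h and 9.2% at 6 h. The bins within 2000 bp lay below these shares, and the bin from 2000 to 10000 bp not far above them. The deep units had more fragments, a median of 86.2 per library against 21 for those within 500 bp. Among units with a mean of at least 50 fragments the shares at 1 h were 14.3%, 6.61%, 2.07% and 3.08% from the deepest to the shallowest bin, and at 6 h 19.6%, 21.5%, 5.52% and 7.69%, where the deepest bin was no longer first. The median log2 fold change at 1 h was -0.15 for the deep units and -0.23 for those within 500 bp, the reverse of the shares, and at 6 h it was -0.22 and -0.09.

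**Figure D5:**
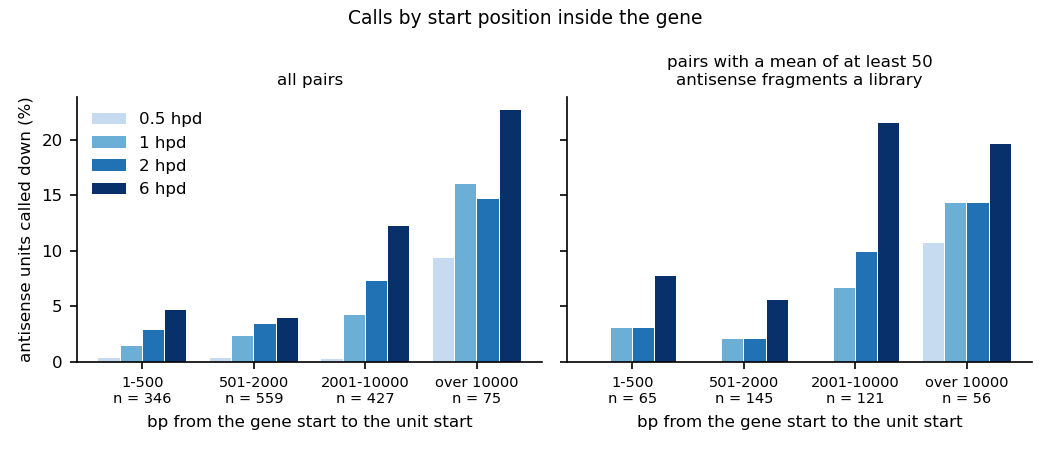
Percentage of antisense units called down (y axis) by how far inside the gene they start (x axis, bp) at 4 times after depletion, for all pairs (left) and for pairs whose antisense unit had a mean of at least 50 fragments per library (right). The deepest bin holds 75 units, of which 16% were down at 1 h and 22.7% at 6 h.

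Over all times together, 130 of 2244 antisense units were called by a joint test of the 4 time points (5.79%), against 12.3% of all tested TUs. The share was also 12.3% (65) among the 530 units with a mean of at least 50 fragments per library, and 3.79% among the 1714 weaker ones. Between successive times few units were called. From 0.5 to 1 h 2 were called (0.0891% of antisense units, against 0.109% of all TUs), from 1 to 2 h 1 (0.0446% against 0.218%), and from 2 to 6 h 5 (0.223% against 0.777%). The units opposite Pramef12, Otud4 and Scd1, named because of these calls after their values were seen, were called between 2 and 6 h and in no earlier step.

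The Pramef12 unit, over the annotated antisense gene Pramef12os, had 8.14 and 11.2 CPM in NT, 4.85 and 8.12 at 2 h, and 1.62 and 1.86 at 6 h, which lay below all other libraries (-2.46 ± 0.31 against NT). Its gene, of the PRAME family, had 26.9 and 29.9 CPM in NT, 16 and 17.9 at 2 h and 16.2 and 18.9 at 6 h. The Scd1 unit had 5.72 and 5.45 CPM in NT, 6.72 and 6.14 at 2 h and 3.51 and 2.85 at 6 h, opposite a fatty acid desaturase gene with 147 and 134, 202 and 200, and 162 and 123 CPM. The Otud4 unit had 6.39 and 6.47 CPM in NT, 4.75 and 5.26 at 2 h and 9.34 and 8.39 at 6 h, opposite a deubiquitinase gene that stayed between 163 and 229 CPM.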

How the data were processed

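Fragment counts per TU were analysed for 10 TT_chem-seq libraries. The authors aligned stranded reads to mm10 (the submitters' processing notes list BWA 0.7.17-r1188, SAMtools 1.10 and Picard 2.12.0), called TUs on all libraries pooled with a 2-state hidden Markov model in 200-bp bins, kept TUs with over 25 fragments and deposited raw counts per TU. The units were thus defined on the libraries that are compared here, and their file starts appear to be 0-based. The 28459 TUs in which 2 or more libraries exceeded 10 fragments entered edgeR 4.0.16 (R 4.3.3, quasi-likelihood, TMM, 1 coefficient per group over all 10 libraries, 5 residual degrees of freedom), with Benjamini-Hochberg adjustment over all of them and a threshold of 0.05. CPM used TMM-scaled library totals. Antisense to gene ratios, log2 CPM differences with a prior count of 2, were tested in limma 3.58.1 over 4589 pairs. DESeq2 1.42.0 was an alternative. Tests were checked on simulated data. Totals of 11131490 to 25854106 fragments per library set the precision, and a unit at the median had 22.6 fragments.

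Antisense units were named by rule: at each time the 3 with the smallest p in each direction among called units with both depleted libraries above or below both NT libraries, the 3 smallest p in each direction of the ratio test, the units opposite Suv39h1, Top1, Klf2, Sox2 or other pluripotency genes, and the 5 highest NT levels per kb. The members and lists were chosen with earlier results of these data known. A few listed genes are counted in their lists but not reported here by name. Alternatives were DESeq2, other scalings and count filters, fits of the compared libraries alone, the replicate number as a block, each library left out, and, chosen after seeing the data, units over same-strand protein-coding genes left out.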

Additional observations from a re-analysis of the deposited data

Results flagged for a closer look

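A difference between times, tested directly between 2 depleted groups and not through NT, was called in 8 cases among antisense units. From 0.5 to 1 h the units opposite Top1 and Hcrtr2 changed by -2.07 and -1.13 on the log2 scale (edgeR, adjusted p = 0.000119 and 0.00522), lower in both 1 h libraries than in either 0.5 h library. From 1 to 2 h the Hcrtr2 unit changed by a further -1.08 (adjusted p = 0.0152). From 2 to 6 h the changes were -1.88 opposite Pramef12, -0.91 opposite Cd38, -0.71 opposite Clmp, -1.02 opposite Scd1 and 0.82 opposite Otud4 (adjusted p = 0.0112, 0.0049, 0.029, 0.0264 and 0.0436), and in each the 2 libraries at 6 h lay on one side of both libraries at 2 h. Groups of 2 libraries were too small for a test of single outlying libraries.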

How the results depend on the processing

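With 2 libraries per group the counts of calls are imprecise, and the median antisense unit had 22.6 fragments per library, so small changes could not be detected. Counts below follow 0.5, 1, 2 and 6 h. Deviations of same-numbered replicates correlated at r of 0.0742 to 0.291 between groups, above 0.1 in 8 of 10 pairs of groups, and with 2 numbers and no label of a shared batch the number was not taken as a pairing. With it as a replicate block, antisense units called up were 15, 23, 49 and 80, called down 35, 127, 206 and 262, opposite genes called 112, 264, 426 and 466, ratios called at 1, 2 and 6 h 36, 80 and 136, successive calls 5, 5 and 31, and joint calls 300. No call of a unit named by the rule was lost. DESeq2 called 9, 39, 59 and 90 down and 24 up at 6 h. Total counts gave 1 up at 0.5 h, 24 up at 6 h and 2 calls from 2 to 6 h. A mean of at least 50 counts left 6, 25, 42 and 77 down, 3 up at 1 h, 13 up at 6 h, 56 joint calls and, asked of both units, 44 ratios at 6 h. Only the libraries compared gave 20 up, 346 genes and 28 ratios at 1 h, 17 ratios at 2 h and, by edgeR, 0 calls from 1 to 2 h. Without units over same-strand protein-coding genes, chosen after seeing the data, 6 rose at 2 h and 26 at 6 h. The cause of these shifts was not tested. Leaving out 1 library gave 0 to 2, 0 to 12, 5 to 26 and 10 to 54 up, 3 to 15, 22 to 70, 37 to 125 and 53 to 159 down, 12 to 68, 66 to 204, 113 to 351 and 152 to 374 genes, 1 to 3, 2 to 20, 4 to 48 and 21 to 101 ratios, 1 to 2, 0 to 1 and 0 to 6 successive calls, and 64 to 159 joint calls. Of 1892 alternative values for units named by the rule no called one changed direction, 1777 kept their side of the threshold, 30 passed it and 85 no longer did, 73 of these with 1 library left out.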
